A study of Mus musculus with 6 samples.

Results

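The genes of leptin and insulin signalling were measured in single cells of the hypothalamus of ob/ob mice, a strain that cannot make leptin because its leptin gene is mutated. The members were 8 genes, Lepr, Insr, Igf1r, Irs1, Irs2, Socs3, Stat3 and Foxo1, chosen by name from the 16411 genes of the raw count table. All 8 were found, and 15217 of the 16411 genes had a count in the cells used here. The mice were male and 11 weeks old. Each was given 3 µg of FGF1 R50E into a cerebral ventricle (icv), a form of fibroblast growth factor 1 with a single amino acid replaced, and was killed on day 5. The labels name 6 samples of 1 mouse each, and the cell table holds cells of mice 3, 4, 30 and 34, so n = 4 mice unless stated. All 4 carry the same mutation and received the same injection, so neither an effect of the injection nor one of the missing leptin could be estimated, and the comparisons are between cell types of the same mice.

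Leptin, a hormone from fat, binds LEPR on hypothalamic neurons and some other cells. The receptor works through the kinase JAK2 and the transcription factor STAT3, which switches on SOCS3, an inhibitor that binds back to the receptor complex. Insulin and the insulin-like growth factors bind INSR and IGF1R, 2 related receptor kinases. These pass the signal to the adaptor proteins IRS1 and IRS2, then to PI3K and AKT, and AKT keeps the transcription factor FOXO1 out of the nucleus. STAT3 and SOCS3 also serve the interleukin 6 family of cytokines, whose receptors share the subunit gp130 (Il6st). A transcript level does not show whether a receptor or kinase is active.

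The 4 mice gave 20151 cells with 3299971 to 8856079 UMIs (unique molecular identifiers, counted molecules) per mouse and a median of 909 to 1066 UMIs per cell. The study's labels put them into 5909 astrocytes, 4490 tanycytes, 1530 ependymal cells, 1261 oligodendrocyte precursor cells (OPCs), 681 committed oligodendrocyte precursors (COPs), 4566 oligodendrocytes, 1266 endothelial cells, 380 microglia and 68 vascular leptomeningeal cells (VLMCs). Neurons, where leptin signalling is best known, have no label of their own in these cells. Of 5 markers for each label, all 5 were highest in their own cells for 7 of the 9 labels, and 4 of 5 for tanycytes and OPCs. The endothelial label also holds markers of pericytes and smooth muscle (mural cells), with 3105 to 3453 CPM (counts per 1000000 UMIs) against 35 to 68 CPM in astrocytes. Mouse 30 stood apart in several values below, and the means it moves most are also given without it. Cells of different libraries shared 194 barcodes, which covered 1.94% of the cells. A level is the sum of UMIs of a gene over all cells of a type in a mouse, in CPM, as mean ± SD over mice, and levels are compared between cell types for 1 gene at a time.

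A sequence of the leptin pathway is shown for Socs3, because its promoter is the only one among the members to hold the palindrome that STAT factors are known to bind. The promoters are RefSeq stretches of GRCm38.p6 from 250 bases before to 50 bases after a gene's start, and 8 promoters matched 7 of the 8 members. Insr had no entry. The capitals mark the motif TTCNNNGAA, which reads alike on both strands, and it starts at -154 from the RefSeq start used for this window. The GENCODE annotation, used for the gene positions given below, starts Socs3 further upstream, at 117970047 on the minus strand. By that annotation the whole window, with the motif, lies inside the gene and after its start.
Socs3, chr11:117969317-117969616, minus strand: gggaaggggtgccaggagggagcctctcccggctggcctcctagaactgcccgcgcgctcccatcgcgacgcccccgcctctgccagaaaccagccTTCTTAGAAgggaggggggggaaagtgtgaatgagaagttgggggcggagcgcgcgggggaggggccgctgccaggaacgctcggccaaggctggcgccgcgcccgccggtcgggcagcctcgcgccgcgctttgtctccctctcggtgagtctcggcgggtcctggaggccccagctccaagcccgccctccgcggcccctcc
The motif was found in 8.30% of 32851 promoters of that length. The letters GTAAACA, bound by FoxO factors and searched on both strands, occurred in 3.65% of the promoters and in none of those of the members. A match describes the letters only, and the lack of a match says only that these letters are not in the window.

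Lepr, the leptin receptor (chr4:101717404-101815352, plus strand, GRCm38), was the rarest member. In astrocytes mice 3, 4, 30 and 34 gave 8, 3, 1 and 5 Lepr UMIs, which pooled to 3.10 CPM with an exact Poisson 95% interval of 1.81 to 4.96. In tanycytes the same mice gave 1, 0, 8 and 1 UMIs, so most of the pooled level of 1.77 CPM came from mouse 30. Endothelial cells gave 4, 1, 5 and 8 UMIs, or 6.85, 4.33, 19.0 and 13.1 CPM, with at least 1 UMI in every mouse. A UMI was found in 17 of 1266 endothelial cells (1.34%, exact binomial 95% interval 0.784 to 2.14). The mean in microglia, 12.0 ± 19.4 CPM, rests on 5 UMIs, of which 4 were in 1 cell of mouse 30, and without that mouse it was 2.50 CPM. Ependymal cells held 3 Lepr UMIs in all, OPCs 1, COPs 6 and oligodendrocytes 10. Along the order of the 8 cell types with enough cells in every mouse, no neighbours separated: all 7 pairs overlapped between mice. The 6 neuron markers (Snap25, Syt1, Stmn2, Rbfox3, Agrp and Pomc) summed to 95.7 to 492 CPM in these types and mice, with none of the 6 at 0 in any type, so transcripts of neuron marker genes were counted in these cells. Their part in the few Lepr UMIs was not tested, and a Lepr UMI is not read as expression by the cell that held it.

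The densest Lepr signal lay in the smallest class. In mouse 30, 11 of 44 VLMCs (25%) had a Lepr UMI, with 13 UMIs or 154 CPM (exact Poisson 95% interval 82.2 to 264). The 6, 12 and 6 VLMCs of mice 3, 4 and 34 had none, which allows up to 536, 136 and 239 CPM (3 UMIs of the total, counting error only). VLMCs of mouse 30 also held mural markers at 2614 CPM beside 3018 CPM of their own markers. The other members in those 44 cells were at 226 CPM for Socs3, 190 CPM for Igf1r, 119 CPM for Stat3, 95.1 CPM for Irs2, 35.6 CPM for Insr, 23.8 CPM for Irs1 and 11.9 CPM for Foxo1. With 20 or more VLMCs in mouse 30 alone, no test was made. The annotation lists 7 Lepr transcripts, of which 4 code for protein and end at 4 different 3′ ends. Counts from 3′ ends were summed over them, so the long receptor that signals and the short forms were not told apart.

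Lepr did not pass the filter on low counts in any comparison. Without that filter the edgeR difference between endothelial cells and astrocytes was 1.65 on the log2 scale (adjusted p = 0.0197), while DESeq2 gave 1.69 (adjusted p = 0.127). In the other 6 pairs the unfiltered adjusted p was 0.236 or higher. Over all 8 types at once Lepr differed without the filter (edgeR adjusted p = 0.000197) and in DESeq2 (adjusted p = 0.000749). Leprot, a neighbour of Lepr whose product acts on the receptor's transport to the cell surface, was measured at 94.7 ± 12.1 CPM in endothelial cells and 24.3 ± 2.16 CPM in astrocytes (log2 difference 1.87 ± 0.18 SE, adjusted p = 3.86e-14 in edgeR).

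**Figure D1:**
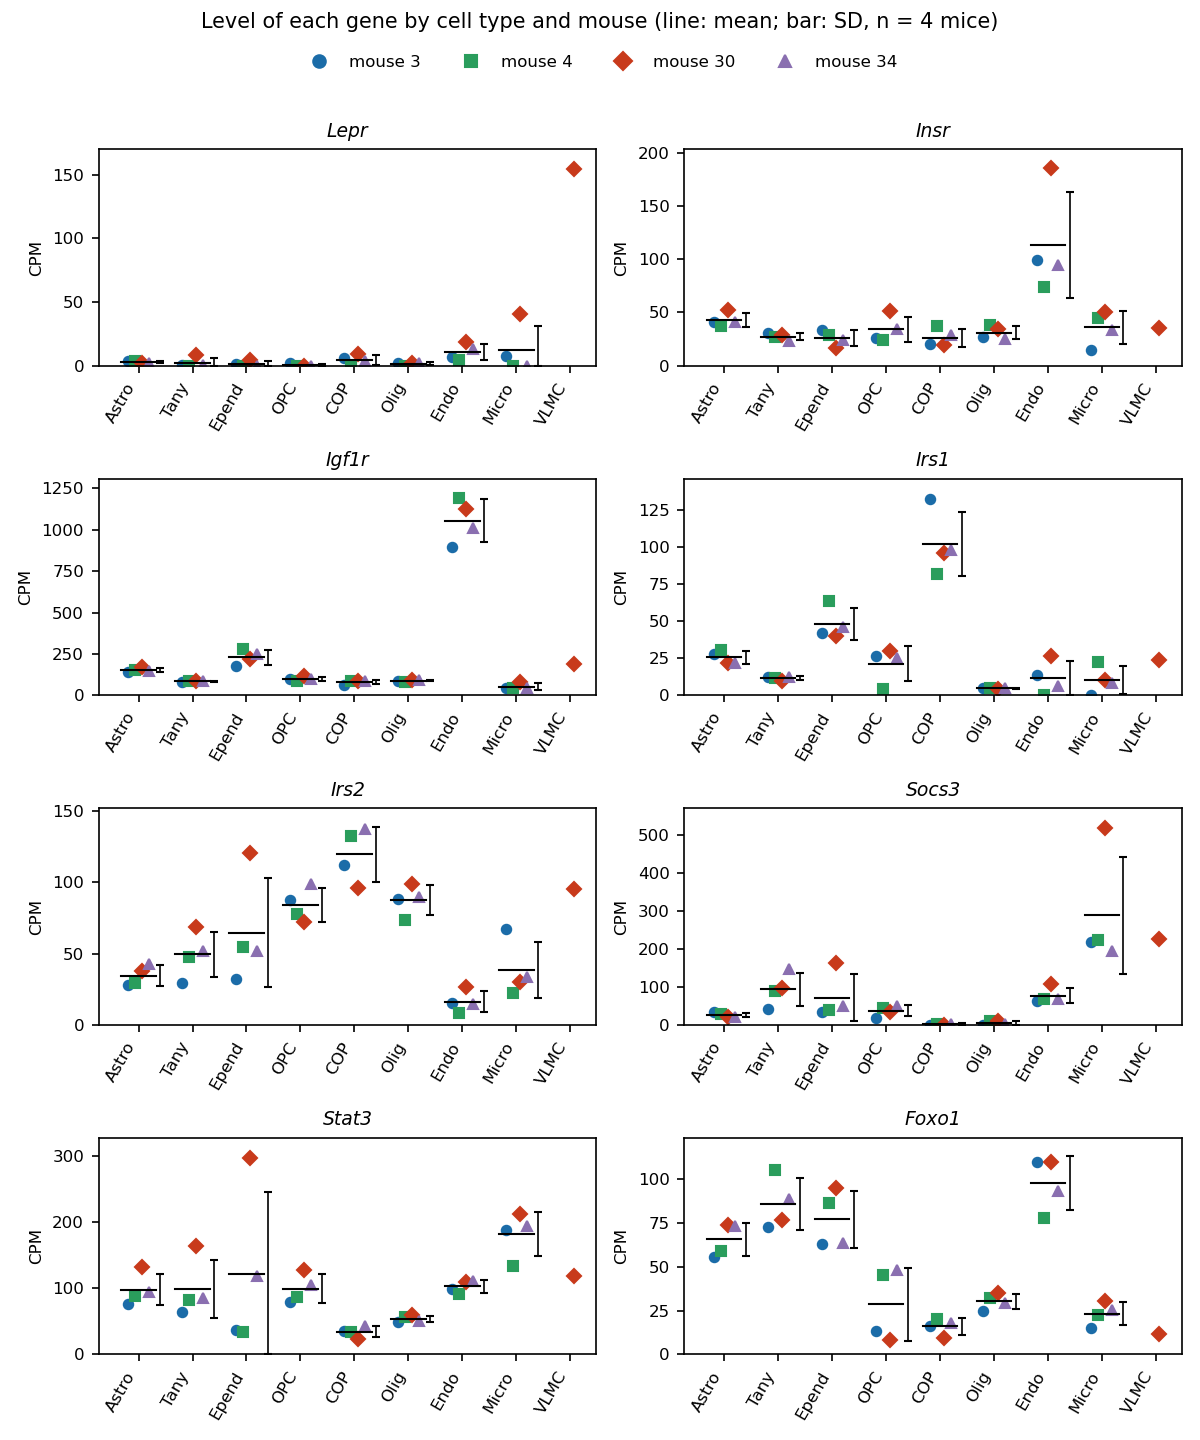
Level of each of the 8 genes in CPM (linear axis from 0) in 9 cell types. Each point is a mouse, the horizontal line is the mean and the bar the SD over 4 mice, cut at 0; VLMCs show mouse 30 only. Igf1r stands out in endothelial cells at 1055 ± 131 CPM, Socs3 in microglia at 288 ± 153 CPM, and Irs1 in COPs at 102 ± 21.6 CPM.

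Igf1r, the receptor of insulin-like growth factor 1 (chr7:67952827-68233668, plus strand), was highest in endothelial cells. Its level there was 1055 ± 131 CPM, from 894 to 1191 CPM between mice, which was 4.58-fold the level of the next type. Ependymal cells followed with 175, 277, 217 and 253 CPM in mice 3, 4, 30 and 34 (230 ± 44.6 CPM). Astrocytes had 153 ± 14.1 CPM and OPCs 100 ± 11.7 CPM. These 3 steps, from endothelial to ependymal cells, astrocytes and OPCs, did not overlap between mice. Below them oligodendrocytes (88.4 ± 4.21 CPM), tanycytes (85.0 ± 4.36 CPM), COPs (80.9 ± 12.5 CPM) and microglia (53.2 ± 18.6 CPM) overlapped with their neighbours. The microglia of mouse 30 were at 81.1 CPM, and without them the mean was 43.9 ± 1.57 CPM. These values rest on 6, 2, 8 and 5 UMIs in mice 3, 4, 30 and 34. The exact Poisson 95% interval was 35.0 to 160 CPM in mouse 30 and 5.41 to 161 CPM in mouse 4. A UMI of Igf1r was found in 65.2% ± 3.60 of endothelial cells and in 5.10% of microglia. After every cell was thinned to 500 UMIs the shares were 40.7% ± 5.44 and 2.50%.

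Insr, the insulin receptor (chr8:3122061-3279617, minus strand), was also highest in endothelial cells. Mice 3, 4, 30 and 34 gave 99.3, 73.7, 186 and 94.8 CPM there, and the mean was 113 ± 49.6 CPM, or 89.3 ± 13.7 CPM without mouse 30. Every one of these values lay above all values in astrocytes, the next type at 42.9 ± 6.37 CPM. The other types followed from microglia (36 ± 15.7 CPM), OPCs (34.1 ± 12.0 CPM), oligodendrocytes (31.1 ± 6.28 CPM), tanycytes (27.3 ± 3.17 CPM) and COPs (26.4 ± 8.55 CPM) down to ependymal cells (25.9 ± 7.27 CPM). No neighbours among these 7 types separated. An Insr UMI was found in 13% ± 4.38 of endothelial cells and in 3.24% to 4.82% of the cells of the other 7 types, and after thinning in 5.58% ± 3.20 and in 0.203% to 2.03%. Annotated genes without a known product lie on the other strand of Insr, and whether the counting used strand is not given in the sources used here.

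Against astrocytes, 6 of the 7 members tested differed in endothelial cells, with 4 higher and 2 lower. Over all 7616 genes tested, 30.6% were higher and 29.9% lower. Igf1r was higher by 2.72 ± 0.11 on the log2 scale (SE; edgeR adjusted p = 2.02e-32) and Insr by 1.27 ± 0.16 (adjusted p = 7.33e-10). Irs1 and Irs2 went the other way. Irs1 was lower in 3 of 4 mice by -1.22 ± 0.36 (adjusted p = 0.00269, and 0.0512 without mouse 34), and Irs2 was lower in 4 of 4 mice by -1.18 ± 0.28 (adjusted p = 0.000272). Both calls were lost in DESeq2 (adjusted p = 0.116 for Irs1 and 0.0512 for Irs2). Socs3 (1.38 ± 0.20, adjusted p = 2.14e-08) and Foxo1 (0.56 ± 0.16, adjusted p = 0.00202) were higher, but the Foxo1 call was lost without mouse 3 (adjusted p = 0.121) and in DESeq2 (0.0808). Stat3 differed by 0.11 ± 0.15 (adjusted p = 0.546).

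The endothelial calls were also run on the 389 of 1266 cells without any mural UMI, a choice made after the data were seen. Igf1r was 1105 ± 124 CPM and Insr 145.5 ± 78.4 CPM in them. The differences from astrocytes were 2.81 for Igf1r (edgeR adjusted p = 1.22e-73), 1.53 for Insr (adjusted p = 1.78e-07) and 1.56 for Socs3 (adjusted p = 3.76e-05). The Foxo1 difference of 0.48 missed the threshold there (adjusted p = 0.159), and Irs1 and Irs2 did not pass the filter.

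Of 32 other genes of insulin and PI3K signalling, 27 were tested between endothelial cells and astrocytes, with 9 higher and 5 lower, beside 30.6% and 29.9% of all genes. Their median log2 difference was 0.17, against -0.02 for all genes. Grb10, an adaptor that binds and restrains both receptors, was at 73.4 ± 19.7 CPM in endothelial cells and 5.47 ± 1.06 CPM in astrocytes (log2 difference 3.59 ± 0.28, edgeR adjusted p = 7.66e-18). Its relative Grb14 was at 76.9 ± 13.4 and 15.8 ± 8.48 CPM (2.13 ± 0.22, adjusted p = 7.64e-13). Both genes passed the filter through their level in endothelial cells, so they had to differ.

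**Figure D2:**
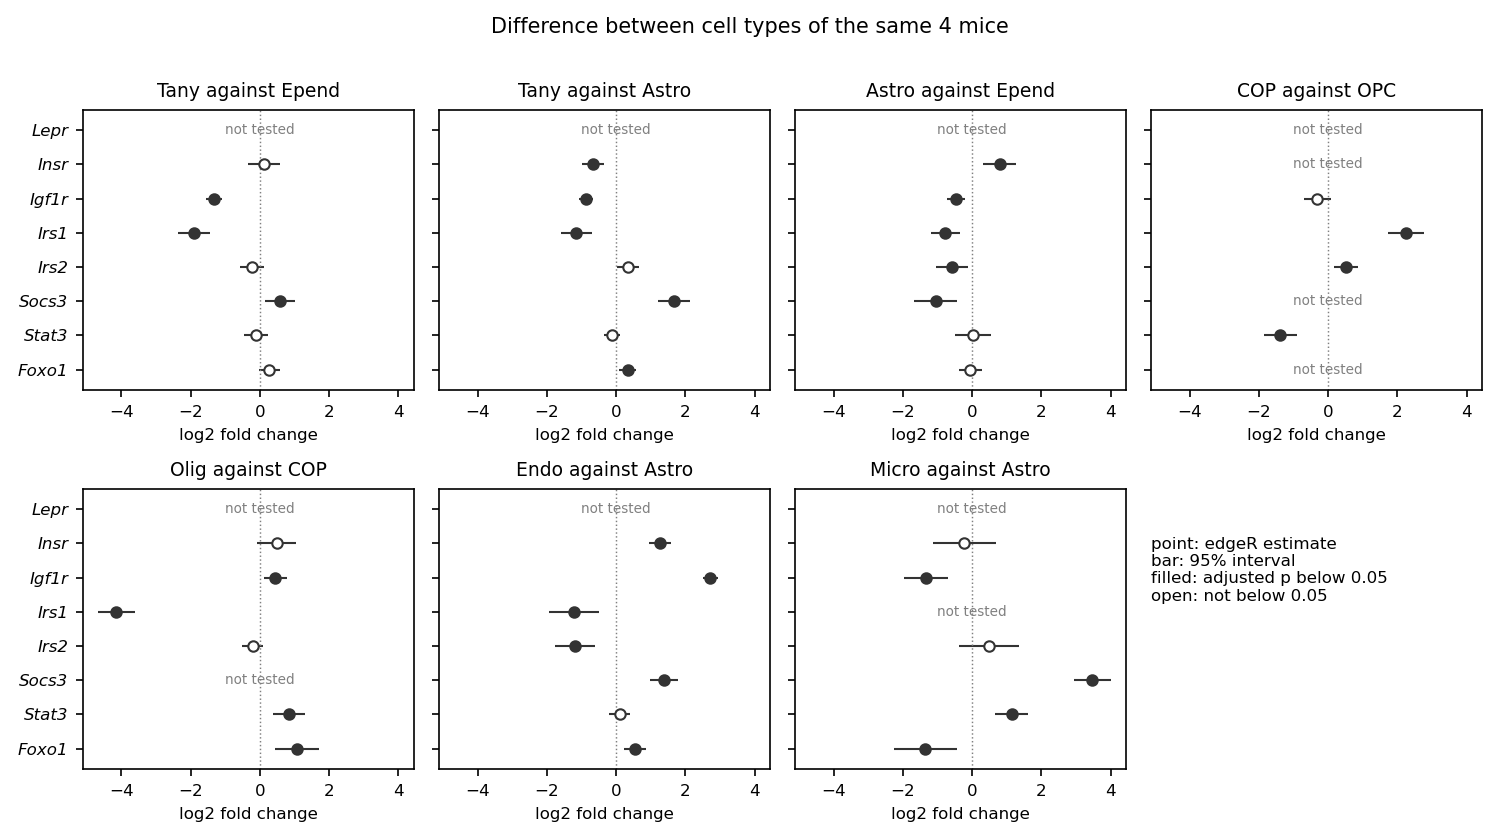
Log2 difference in level between the cell types of 7 pairs for each member that passed the filter, with its 95% interval from edgeR. Filled points passed the threshold of 0.05 on the adjusted p and open points did not. The longest distances from 0 are those of Irs1 between oligodendrocytes and COPs (-4.15) and of Socs3 between microglia and astrocytes (3.48).

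Irs1, an adaptor that couples insulin and IGF1 receptors to PI3K (chr1:82233101-82291416, minus strand), was high at a single stage of the oligodendrocyte lineage. OPCs of mice 3, 4, 30 and 34 had 26.3, 4.10, 29.7 and 25.2 CPM, where the value of mouse 4 is 1 UMI. COPs, the stage after OPCs, had 132, 81.5, 95.7 and 97.8 CPM. Mature oligodendrocytes had 5.17, 4.74, 4.11 and 4.88 CPM, from 28 UMIs in 4566 cells. Every COP value lay above all values of the other 2 stages, and OPCs lay above oligodendrocytes in all mice but mouse 4. Irs1 was higher in COPs than in OPCs by 2.26 ± 0.26 (edgeR adjusted p = 1.61e-12) and lower in oligodendrocytes than in COPs by -4.15 ± 0.26 (adjusted p = 9.48e-24), in 4 of 4 mice each. Both calls held under each of their 10 alternatives, with ranges of 2.12 to 2.43 and -4.25 to -3.92. Irs1 passed the filter in both pairs through its level in COPs, so it had to differ. These calls and their stability are a description only.

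Over all types, the Irs1 level in COPs (102 ± 21.6 CPM) was separate from that in ependymal cells (47.8 ± 10.7 CPM), and that in turn from astrocytes (25.5 ± 4.52 CPM). OPCs (21.3 ± 11.6 CPM), endothelial cells (11.7 ± 11.4 CPM), tanycytes (11.4 ± 1.33 CPM), microglia (10.2 ± 9.21 CPM, 3 UMIs) and oligodendrocytes (4.73 ± 0.446 CPM) overlapped with their neighbours. An Irs1 UMI was found in 16.5% ± 7.45 of COPs and 0.574% of oligodendrocytes, and in 3.87% ± 1.88 and 0.178% after thinning to 500 UMIs per cell. COPs were the deepest of the 8 types without VLMCs, with medians of 1081 to 2402.5 UMIs per mouse against 894 to 1304.5 in oligodendrocytes.

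Irs2, the second main adaptor (chr8:10984681-11008458, minus strand), differed less along the lineage. OPCs had 87.6, 77.9, 72.2 and 98.7 CPM in mice 3, 4, 30 and 34, COPs 112, 132, 95.7 and 138 CPM, and oligodendrocytes 88.4, 73.9, 98.8 and 89.4 CPM. All 3 stages overlapped. The difference between COPs and OPCs was 0.52 ± 0.18 (edgeR adjusted p = 0.0130; 0.240 in DESeq2), and that between oligodendrocytes and COPs was -0.20 ± 0.15 (adjusted p = 0.262). Below these stages came ependymal cells (64.8 ± 38.3 CPM), tanycytes (49.4 ± 16 CPM), microglia (38.5 ± 19.9 CPM) and astrocytes (34.6 ± 7.21 CPM), which overlapped with their neighbours. Endothelial cells were lowest with 16.3 ± 7.46 CPM and did not overlap with astrocytes. An Irs2 UMI was found in 18.3% of COPs and 1.99% of endothelial cells, and in 5.36% and 0.938% after thinning.

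Stat3, Foxo1 and Igf1r were also called in a step of the lineage, while Lepr and Socs3 were tested in neither step and Insr was not called. Between COPs and OPCs 4 members were tested, with Irs1 and Irs2 higher and Stat3 lower (-1.39 ± 0.24, edgeR adjusted p = 5.33e-07), and Igf1r at -0.31 ± 0.19 (adjusted p = 0.181). Over 4879 genes 22.6% were higher and 23.8% lower. Between oligodendrocytes and COPs 6 members were tested, with 3 higher and 1 lower, against 28.3% higher and 26.9% lower of 6209 genes. Foxo1 (1.08 ± 0.32, adjusted p = 0.00272), Stat3 (0.84 ± 0.23, adjusted p = 0.00137) and Igf1r (0.45 ± 0.17, adjusted p = 0.0187) were higher in oligodendrocytes, but Igf1r in 3 of 4 mice and without a call when mouse 3 was left out (0.30, adjusted p = 0.243). DESeq2 called 1 of these 4 members, Irs1.

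**Figure D3:**
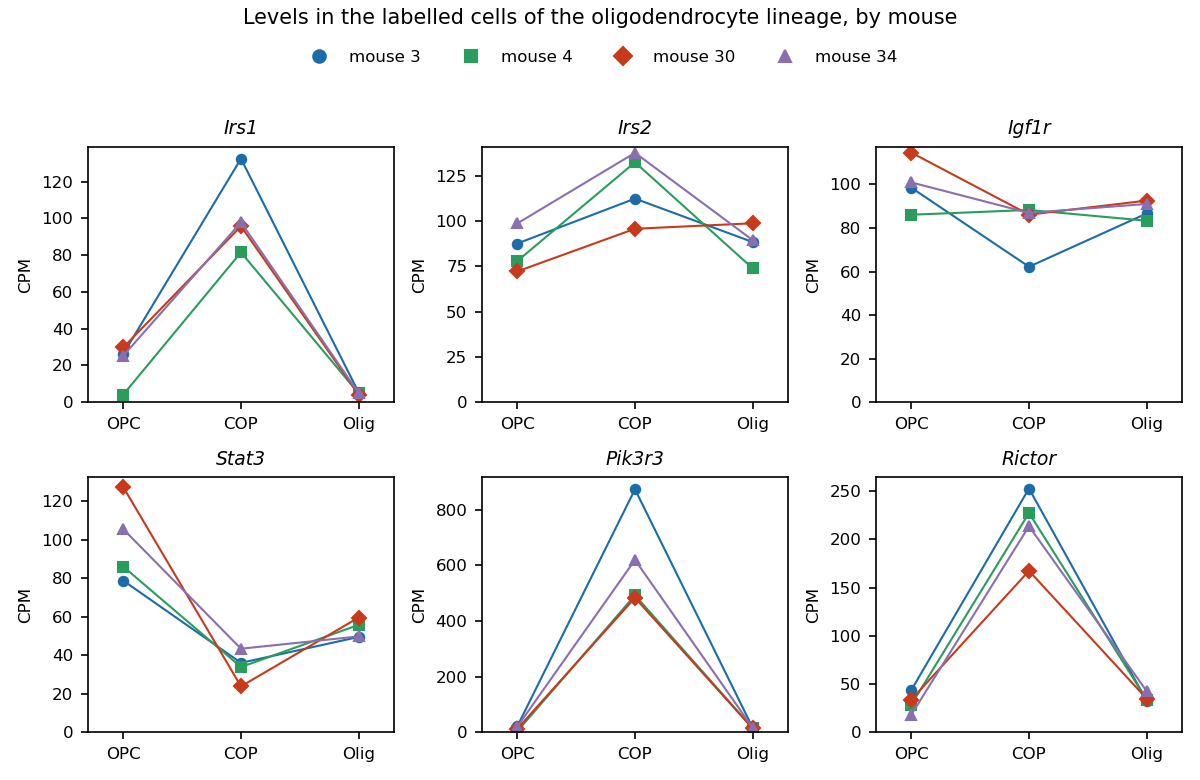
Level in CPM (linear axis from 0) of Irs1, Irs2, Igf1r, Stat3, Pik3r3 and Rictor in OPCs, COPs and oligodendrocytes, with 1 line for each of 4 mice. Lines join cell types of the same mouse. Irs1, Pik3r3 and Rictor peak in COPs in every mouse, at means of 102, 617 and 215 CPM, and Stat3 is lowest there in every mouse.

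The listed insulin and PI3K genes included others with a peak in COPs. Between COPs and OPCs 19 of 32 were tested, with 5 higher and 4 lower and a median difference of 0.01, beside 22.6% higher and 23.8% lower of all genes. Pik3r3, a regulatory subunit of PI3K, had 873, 492, 483 and 619 CPM in COPs and 21.9, 4.10, 12.7 and 20.6 CPM in OPCs of mice 3, 4, 30 and 34 (5.30 ± 0.19, edgeR adjusted p = 1.34e-44). It was at 15.7 ± 1.09 CPM in oligodendrocytes. Pik3r3 passed the filter through its level in COPs, so it had to differ. Rictor, a subunit of the mTORC2 kinase that acts on AKT, was at 31.2 ± 10.6, 215 ± 35.8 and 36.2 ± 4.53 CPM in OPCs, COPs and oligodendrocytes. Inppl1, a lipid phosphatase that opposes PI3K, was at 21.5 ± 7.66, 117 ± 29.6 and 13.4 ± 5.05 CPM. Inppl1 was named after its values were seen. These 3 genes separated COPs from both neighbours in every mouse.

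Between oligodendrocytes and COPs 24 of the 32 genes were tested, with 7 higher and 8 lower and a median of -0.11, beside 28.3% higher and 26.9% lower of all genes. Grb14 was at 786 ± 33.1 CPM in oligodendrocytes and 36 ± 13.4 CPM in COPs (4.83 ± 0.16, edgeR adjusted p = 1.82e-41), and at 14.2 to 76.9 CPM on average in the other 6 types. Phlpp1, a phosphatase of AKT, was at 285 ± 29.0 and 79.1 ± 29.8 CPM (2.08 ± 0.14, adjusted p = 4.12e-22). Among gp130 family receptors, Lifr, the receptor of leukaemia inhibitory factor, went down from 94.7 ± 28.1 CPM in OPCs to 16.3 ± 6.84 CPM in COPs and was 54.9 ± 14.3 CPM in oligodendrocytes. Both Lifr differences were called (-2.34 ± 0.28, adjusted p = 9.35e-12, and 1.81 ± 0.28, adjusted p = 4.36e-08).

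Tanycytes, ependymal cells and astrocytes, the glia that line or lie near the third ventricle, differed in Igf1r and Irs1 in all 3 pairs. Tanycytes had less Igf1r than ependymal cells (-1.32 ± 0.11, edgeR adjusted p = 2.20e-13) and less Irs1 (-1.90 ± 0.24, adjusted p = 3.85e-09), each in 4 of 4 mice. Socs3 was called higher in tanycytes (0.58 ± 0.21, adjusted p = 0.0211), but in 3 of 4 mice, and the difference was 0.07 without mouse 34, 0.46 without mouse 4 and 1.25 without mouse 30. Without the mouse block it was 0.49 (adjusted p = 0.383). The Socs3 call was kept in only 4 of 10 alternatives and was lost in DESeq2 (adjusted p = 0.253). In the main test 3 of 7 members differed, 1 higher and 2 lower, beside 21.3% higher and 24.9% lower of 8781 genes. Insr (0.12 ± 0.23), Irs2 (-0.23 ± 0.18), Stat3 (-0.11 ± 0.18) and Foxo1 (0.27 ± 0.15) did not pass the threshold. Without mouse 30 Foxo1 passed it (0.43, edgeR adjusted p = 0.0240).

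Against astrocytes, tanycytes had less Insr (-0.67 ± 0.16, edgeR adjusted p = 0.000599; 0.0509 in DESeq2), less Igf1r (-0.87 ± 0.11, adjusted p = 1.09e-08) and less Irs1 (-1.14 ± 0.22, adjusted p = 3.51e-05). They had more Socs3 (1.67 ± 0.22, adjusted p = 1.03e-07), by 1.02 without mouse 34 and by 2.38 without mouse 3. Foxo1 was called higher by 0.34 ± 0.12 (adjusted p = 0.0223), which was lost in 6 of 10 alternatives, among them the fit without the mouse block (adjusted p = 0.0790) and leaving out mouse 3, 4 or 34. The 2 higher and 3 lower members of 7 stand beside 26.1% higher and 25.7% lower of 10081 genes. Irs2 (0.34 ± 0.15, adjusted p = 0.0625) and Stat3 (-0.11 ± 0.12, adjusted p = 0.436) missed the threshold. Irs2 passed it with RLE size factors (edgeR adjusted p = 0.0448) and without mouse 3 (adjusted p = 0.0358).

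Astrocytes in turn had more Insr than ependymal cells (0.80 ± 0.23, edgeR adjusted p = 0.00536). They had less Igf1r (-0.46 ± 0.13, adjusted p = 0.00382, and 0.0571 without mouse 34) and less Irs1 (-0.77 ± 0.20, adjusted p = 0.00242, and 0.0570 with sums thinned to equal totals). Irs2 (-0.58 ± 0.22, adjusted p = 0.0324) and Socs3 (-1.05 ± 0.29, adjusted p = 0.00456) were lower as well, but without mouse 30 these became -0.26 (adjusted p = 0.292) and -0.55 (adjusted p = 0.0536). The Irs2 call was also lost without mouse 4 (adjusted p = 0.0627). DESeq2 called Igf1r alone in this pair, with adjusted p = 0.112 for Insr, 0.0515 for Irs1, 0.170 for Irs2 and 0.0712 for Socs3. Of 7 members 1 was higher and 4 were lower, beside 27.7% and 29.2% of 8371 genes. Stat3 differed by 0.03 ± 0.25 and Foxo1 by -0.05 ± 0.16.

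Il6ra, Cntfr and Lifr were among the cytokine receptors using STAT3 that differed between these glia. Il6st was at 79.2, 118, 181 and 119 CPM in ependymal cells of mice 3, 4, 30 and 34. It was at 58.3 to 65.8 CPM in tanycytes and 57.0 to 102 CPM in astrocytes. Il6ra, the interleukin 6 receptor, was at 50.1, 66.4, 52.7 and 78.2 CPM in ependymal cells of mice 3, 4, 30 and 34 and at 1.47, 1.13, 6.32 and 1.68 CPM in tanycytes (-4.58 ± 0.32, edgeR adjusted p = 2.41e-16). Il6ra passed the filter through its level in ependymal cells, so it had to differ. Cntfr, which binds ciliary neurotrophic factor, was at 73.6 ± 7.70 CPM in astrocytes, 29.2 ± 6.19 CPM for tanycytes and 8.29 ± 6.42 CPM for ependymal cells, and all 3 differences were called. Lifr had 94.4 ± 19.4 CPM in astrocytes, while its mean was 16.9 ± 3.63 CPM among tanycytes and 14.0 ± 6.65 CPM among ependymal cells. Of the 6 listed receptors, 3 of 5 tested differed between tanycytes and ependymal cells, 2 of 4 between tanycytes and astrocytes and 4 of 5 between astrocytes and ependymal cells. Of the insulin and PI3K genes 10 of 28, 12 of 29 and 7 of 26 differed in the same pairs. These counts are not read as particular to either list, since 21.3% to 29.2% of all genes were called in each direction in these pairs. Grb10 was at 25.5 ± 7.53 CPM in tanycytes, 6.18 ± 5.26 CPM in ependymal cells and 5.47 ± 1.06 CPM in astrocytes, a log2 difference of 1.98 ± 0.37 and of 2.18 ± 0.28.

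Socs3, the inhibitor that STAT3 switches on (chr11:117966079-117970047, minus strand), was highest in microglia. Mice 3, 4, 30 and 34 had 217, 223, 517 and 194 CPM there (288 ± 153 CPM, or 212 ± 15.7 CPM without mouse 30). All 4 values were above every value in tanycytes, which had 40.8, 88.5, 96.9 and 147 CPM (93.4 ± 43.6 CPM). Endothelial cells (76.5 ± 20.2 CPM), ependymal cells (71.8 ± 60.8 CPM), OPCs (36.8 ± 14.6 CPM) and astrocytes (26.0 ± 6.17 CPM) overlapped with their neighbours. Oligodendrocytes had 5.70 ± 4.87 CPM, separate from astrocytes, and COPs held 2 Socs3 UMIs in 681 cells. A UMI was found in 23.4% ± 9.55 of microglia, with a median depth of 893 to 1000.5 UMIs, and in 0.343% of COPs. After thinning these shares were 12.1% ± 5.50 and 0%, and 3.91% of tanycytes had a UMI. In VLMCs 22 of 68 cells (32.4%) had a Socs3 UMI.

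Stat3 (chr11:100885098-100939540, minus strand), the transcription factor of the leptin receptor, was spread more evenly. Microglia had 182 ± 33.8 CPM and ependymal cells 122 ± 123 CPM. Endothelial cells (103 ± 9.57 CPM), OPCs (99.5 ± 21.8 CPM), tanycytes (98.9 ± 44.6 CPM) and astrocytes (98.0 ± 23.9 CPM) were close to each other. Oligodendrocytes (53.7 ± 4.90 CPM) separated from astrocytes, and COPs (34.4 ± 8.06 CPM) from oligodendrocytes, while all other neighbours overlapped. Stat5a lies partly over Stat3 on the other strand and was at 3.44 to 7.37 CPM in tanycytes, at 0 to 13 CPM in endothelial cells and at 22.5, 0, 0 and 8.42 CPM in microglia of mice 3, 4, 30 and 34.

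Between microglia and astrocytes 4 of the 6 members tested differed, 2 higher and 2 lower, beside 22.4% higher and 23.3% lower of 4778 genes. Socs3 was higher by 3.48 ± 0.27 (edgeR adjusted p = 1.28e-21) and Stat3 by 1.14 ± 0.25 (adjusted p = 5.06e-05). Igf1r (-1.34 ± 0.32, adjusted p = 0.000225, and -1.61 without mouse 30) and Foxo1 (-1.35 ± 0.46, adjusted p = 0.0117) were lower, and the Foxo1 call was lost without mouse 3 or mouse 34 (adjusted p = 0.0590 and 0.0513) and in DESeq2 (0.0520). Insr (-0.22 ± 0.45) and Irs2 (0.49 ± 0.44) did not pass the threshold. In microglia Foxo1 rests on 9 UMIs in all, Insr on 13, Irs2 on 17 and Igf1r on 21. A member or listed gene that entered this test through its high level in microglia had to differ. The same applies in each pair to the type where a gene is high.

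Of the 10 listed genes that respond to STAT3, 5 passed the filter in microglia against astrocytes and 4 in endothelial cells against astrocytes. The 5 tested in microglia were higher, with a median of 4.04 against -0.08 for all genes, of which 22.4% were higher. A listed gene that passed through its high level in microglia or endothelial cells had to differ, so these counts do not describe the whole list. The 5 were Fos, Junb, Myc, Il4ra and Pim1, of which Fos, Junb and Myc are early genes that respond to many other signals too. Junb was at 1009 ± 426 CPM in microglia and 64.1 ± 7.63 CPM in astrocytes (4.04 ± 0.17, edgeR adjusted p = 2.21e-39). The 4 tested in endothelial cells, Fos, Junb, Osmr and Pim1, were higher, with a median of 2.44 against -0.02 for all genes, of which 30.6% were higher. Osmr, the oncostatin M receptor subunit, was at 66.2 ± 13.3 CPM in endothelial cells and 10.2 ± 8.60 CPM in astrocytes (3.04 ± 0.29, adjusted p = 3.42e-14). Socs2, a relative of Socs3 that restrains growth hormone signalling, was at 45.1 ± 13.1 and 2.23 ± 1.36 CPM (4.47 ± 0.40, adjusted p = 2.94e-15). Socs2 passed the filter through its level in endothelial cells, so it had to differ.

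In microglia Ptpn1, a phosphatase of JAK2 and the insulin receptor, was at 150 CPM on average against 21.7 CPM in astrocytes (2.97 ± 0.31, edgeR adjusted p = 1.89e-14). Inpp5d, a lipid phosphatase of blood cells, was at 236 ± 31.6 CPM against 0.798 ± 0.556 CPM. Both genes passed the filter through their level in microglia, so they had to differ. Il6ra was at 95.5 ± 15.1 CPM in microglia. Of the listed JAK-STAT genes 3 of 6 tested were higher in microglia, and of the insulin and PI3K genes 6 of 17 were higher and 2 lower, beside 22.4% higher and 23.3% lower of all genes. The leptin gene Lep and the STAT3-responding gene Cebpd were not analysed here.

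Mouse 30 was above the other mice in several of these genes in ependymal cells. Stat3 there was 297 CPM in mouse 30 and 37.2, 34.6 and 119 CPM in mice 3, 4 and 34, which is 4.67-fold the mean of the others. Socs3 was 162 CPM against 34.0, 40.4 and 50.5 CPM (3.90-fold), and Irs2 was 120 CPM against 32.3, 54.9 and 51.7 CPM (2.60-fold). Without mouse 30 the means in ependymal cells were 63.6 ± 48.0 CPM for Stat3, 41.6 ± 8.35 CPM for Socs3 and 46.3 ± 12.2 CPM for Irs2. In tanycytes Stat3 was 164 CPM in mouse 30 against 64.4, 81.7 and 85.2 CPM, and Irs2 was 68.5 CPM against 29.5, 47.6 and 52.1 CPM. Without mouse 30 these means in tanycytes were 77.1 ± 11.1 CPM for Stat3 and 43.1 ± 12.0 CPM for Irs2. These values were singled out after they were seen. Among member levels with at least 20 UMIs, 4 of 50 had 1 mouse apart from the other 3, beside 5.98% of 69280 such values of all genes.

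Of the 7 members with at least 20 UMIs in ependymal cells, 4 were highest in mouse 30, beside 26.9% of all 9652 such genes. In tanycytes it was 2 of 7, beside 28.0% of 11488 genes, and in microglia 3 of 3, beside 25.5% of 2814 genes. It was 4 of 7 in astrocytes (32.1% of all genes), 4 of 7 in OPCs (27.9%), 5 of 7 in oligodendrocytes (34.6%), 4 of 6 in endothelial cells (29.7%) and 0 of 6 in COPs (27.4%). Of the listed STAT3-responding genes 5 of 6 were highest in mouse 30 in ependymal cells, 4 of 6 in endothelial cells, 3 of 5 in microglia, 2 of 3 in oligodendrocytes, 2 of 4 in tanycytes and in astrocytes, 0 of 2 in OPCs and 0 of 1 in COPs, beside the same shares of all genes. With so few genes a type, nothing is read from these counts. Lcn2, which encodes the secreted protein lipocalin 2, was at 156 CPM in ependymal cells of mouse 30 and had no UMI there in the other 3 mice. Osmr was 67.5 CPM against 3.23, 5.77 and 1.2 CPM, and Bcl3, a partner of NF-kappa-B, 54.8 CPM against 0, 2.89 and 0 CPM. Fos, in contrast, was 1419 CPM in mouse 30 and 1925 CPM in mouse 34.

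Markers of other cells were measured in the same ependymal cells. The 5 microglia markers summed to 65.4 CPM in mouse 30 and to 46.9, 72.2 and 43.3 CPM in mice 3, 4 and 34, so mouse 30 lay within the range of the others. The 4 macrophage markers summed to 23.2 CPM against 3.23, 2.89 and 1.2 CPM, with 3 of the 4 at 0 in mouse 30. Ependymal markers summed to 4575 CPM against 4779 to 5408 CPM. Median depth was 974.5 UMIs per cell in mouse 30 and 1006 to 1266 in the others. Without the 10% of cells with the highest doublet scores Stat3 in ependymal cells of mouse 30 was 319 CPM and Socs3 178 CPM. In the microglia of mouse 30, where Socs3 was high, the microglia markers summed to 4725 CPM against 6891 to 8178 CPM, and macrophage markers to 395 CPM against 97.4 to 404 CPM. Their part in the result was not tested.

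**Figure D4:**
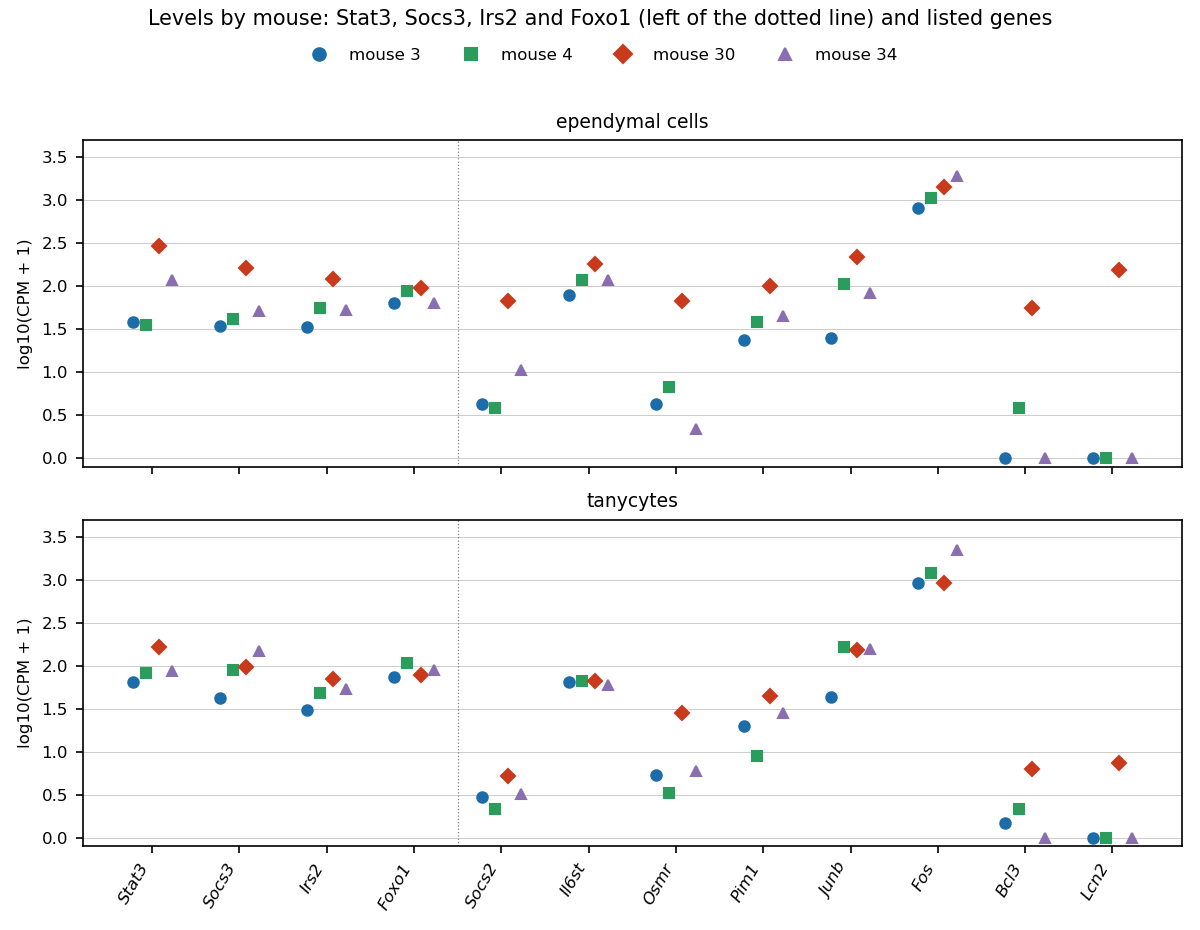
Level in each of 4 mice, as log10(CPM + 1), in ependymal cells and tanycytes for Stat3, Socs3, Irs2 and Foxo1 (left of the dotted line) and for listed cytokine and STAT3-related genes. Each point is a mouse. In ependymal cells mouse 30 lies highest for all of them except Fos, with Lcn2 at 156 CPM against 0 in the other 3 mice. The plotted genes were picked after their values were seen. Of listed genes with at least 20 UMIs, 5 of 11 JAK-STAT genes and 3 of 5 gp130 receptors were highest in mouse 30 in ependymal cells. The share of all genes was 26.9%.

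Foxo1, the transcription factor that insulin signalling holds back (chr3:52268336-52353221, plus strand), divided the cell types into 2 groups. Endothelial cells had 97.7 ± 15.3 CPM, tanycytes 85.9 ± 14.7 CPM, ependymal cells 77.1 ± 16.2 CPM and astrocytes 65.6 ± 9.53 CPM, with each neighbour overlapping. Oligodendrocytes (30.4 ± 4.26 CPM), OPCs (28.7 ± 20.8 CPM), microglia (23.3 ± 6.44 CPM) and COPs (16 ± 4.65 CPM) formed the lower group. Every mouse's astrocyte value was above every oligodendrocyte value, and this was the only step in the order without overlap. A Foxo1 UMI was found in 11.6% ± 1.12 of endothelial cells and 2.53% of microglia, and in 4.46% and 1.66% after thinning. OPCs of mouse 30 were at 8.49 CPM and those of the other mice at 13.1 to 48.2 CPM. A gene without a known product overlaps Foxo1 on the same strand.

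Among listed FoxO factors and genes that they are known to bind, Txnip and Klf15 had orders of their own. Txnip, an inhibitor of thioredoxin and glucose uptake, was at 458 ± 128 CPM in ependymal cells, 77.0 ± 14.5 CPM in tanycytes and 84.9 ± 23.9 CPM in astrocytes (tanycytes against ependymal cells -2.43 ± 0.11, edgeR adjusted p = 6.78e-23). It was at 240 ± 40.9 CPM in endothelial cells and 435 ± 163 CPM in microglia. Klf15, a transcription factor of amino acid and glucose metabolism, was at 83 ± 19.0 CPM in astrocytes and 11.5 ± 5.76 CPM in endothelial cells (-3.08 ± 0.27, adjusted p = 2.07e-15). Of the 12 listed genes, 2 were higher and 3 lower of 9 tested in endothelial cells against astrocytes, 1 and 2 of 5 in microglia, 2 and 2 of 9 in tanycytes against ependymal cells, and 0 and 3 of 11 in tanycytes against astrocytes. Of all genes in these pairs, in the same order, 30.6%, 22.4%, 21.3% and 26.1% were higher and 29.9%, 23.3%, 24.9% and 25.7% lower, and nothing is read from the list's counts.

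When all 8 types with enough cells were compared at once, 7 of 7 members tested differed between types (edgeR adjusted p from 2.73e-48 for Igf1r to 1.43e-07 for Stat3). Of all 10166 genes tested 92.3% did so, so this count does not set the members apart. The cell type labels are likely to rest on the same counts, and all calls between types are descriptive for that reason.

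**Figure D5:**
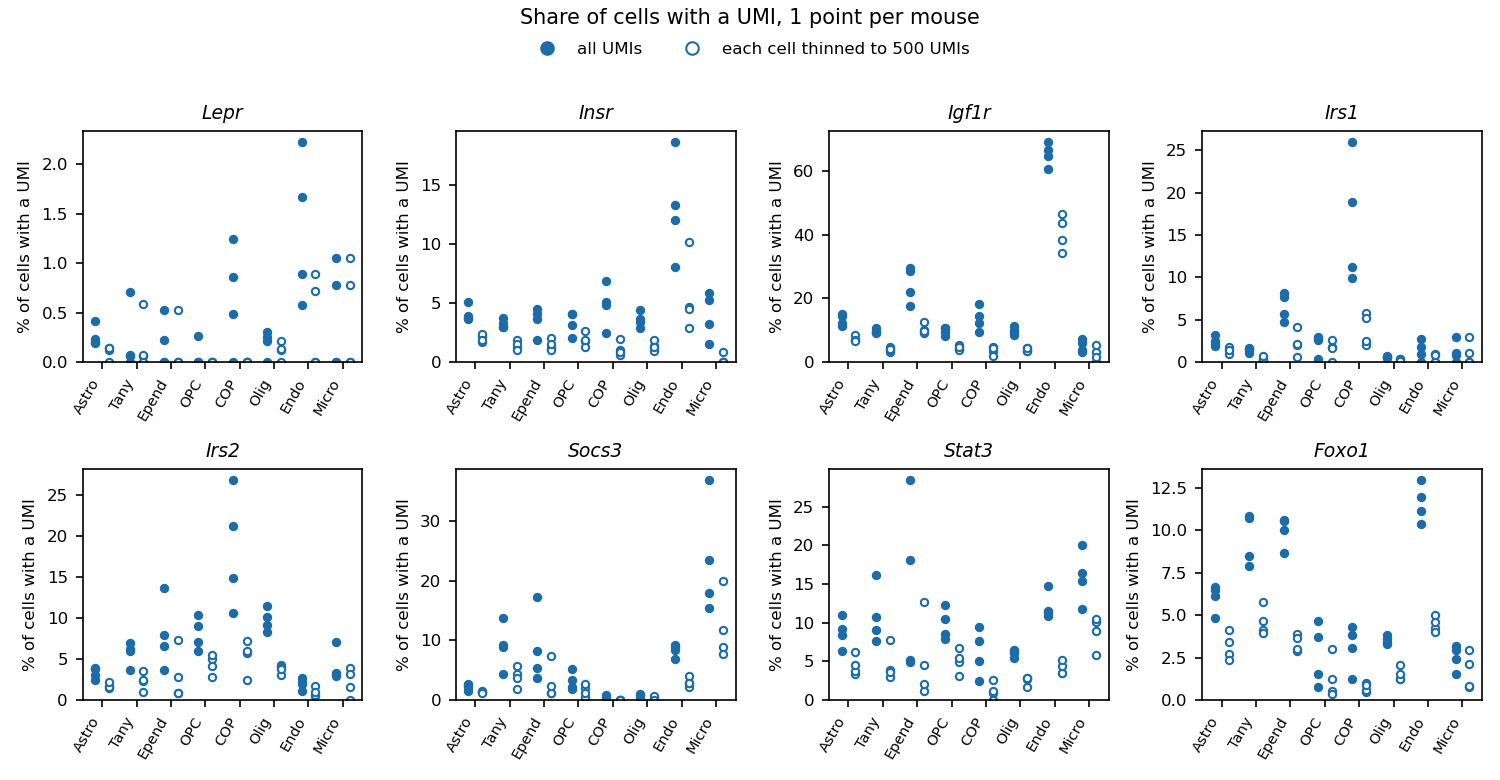
Percent of cells with at least 1 UMI of each gene (linear axis from 0) in 8 cell types, 1 point for each of 4 mice, with all UMIs (filled) and with each cell thinned to 500 UMIs (open). The mean share of Igf1r in endothelial cells is 65.2% before and 40.7% after thinning, and the shares of Irs1 in COPs fall from 16.5% to 3.87%.

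The genes most alike to each member over the 8 types were ranked by Pearson's r of log2(CPM + 10) among 6580 genes with 50 CPM or more in a type. For Igf1r these were Slc30a1 (r = 0.987), Fam101b (0.980) and Itih5 (0.980), and for Insr Slc39a8 (0.985), Tjp1 (0.984) and Id1 (0.983). For Irs1 they were Lats1 (0.951), Pard6g (0.946) and Slc25a17 (0.945), and for Irs2 Fam102a (0.969), Selt (0.956) and Ube2e2 (0.954). Socs3 was most like Spata13 (0.983), Flot1 (0.967) and H2-K1 (0.953), and Stat3 like Flot1 (0.948), Pros1 (0.942) and Asph (0.937), so Flot1 was shared by both. Foxo1 was most like Rdm1 (0.983), Lamb2 (0.979) and Crip2 (0.957). Lepr was below 50 CPM in all 8 types. The 8 points share mice and libraries, and the values of r are a description.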

How the data were processed

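The members and the gene lists were chosen with earlier results of these data known. The authors deposited whole-number UMI counts per gene and cell, made from 10x Chromium 3′ libraries of dissociated hypothalamus. The submitters' processing notes name Cell Ranger 1.2, Seurat and the builds GRCm38, mm10 and GRCh38, while no source used here gives their roles, the strand setting, the doublet caller or the way cells were labelled. The deposited mitochondrial percent of a cell, at most 20%, and the doublet score, deposited as a fraction, only described cells. The lowest total was 487 UMIs. The depth-corrected values deposited beside the counts were not used, nor were 50172 cells of 12 libraries that are not among the labelled samples. Mice 12 and 37 had no cells in the table.

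Counts were summed per mouse and the authors' cell type, and CPM was computed from these sums. The main test of a pair of types was edgeR (version 4.0.16, in R 4.3.3), by its quasi-likelihood F test with TMM, filterByExpr, mouse as a block and Benjamini-Hochberg adjustment over all genes, called at an adjusted p below 0.05. Both types of a pair come from the same animals, which is where the pairing comes from. A mouse needed 20 cells of each type. In every pair, a gene that passed the filter only through the type where it is high had to differ. Named genes were all members and, of each list in each pair, the 2 called genes with the largest difference or one that a sentence on a member turns on. Inppl1, Phlpp1 in oligodendrocytes and the genes of mouse 30 were named after their values were seen. Alternatives were RLE size factors, no filter, DESeq2 1.42.0, no block, thinned sums, 1 fit over all types, and each mouse left out. The alternative without mural cells was chosen after seeing the data. Doublets were left in, and the 2014 cells with the top 10% of scores were left out as an alternative for levels. Shares of cells were recomputed after thinning to 500 UMIs, which left out 1 cell. Gene positions are from GENCODE on GRCm38, while promoter windows follow RefSeq starts, which can differ from those of GENCODE. Poisson and binomial intervals are 95% and cover counting error only.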

Additional observations from a re-analysis of the deposited data

Results flagged for a closer look

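A value was singled out where 1 of 4 mice lay apart from the other 3 by Dixon's criterion for 4 samples, among member levels resting on at least 20 UMIs. This held for 4 of 50 values, 3 of them in mouse 30, where chance gives about 5% and 5.98% of 69280 values of all genes met it. Socs3 in ependymal cells was 162 CPM in mouse 30 and 34.0 to 50.5 CPM in the other 3 mice. Socs3 in microglia was 517 CPM in mouse 30 and 194 to 223 CPM in the others. Igf1r in microglia was 81.1 CPM in mouse 30 and 42.1 to 45 CPM in the others. That value of mouse 30 rests on 8 UMIs, with an exact Poisson 95% interval of 35.0 to 160 CPM, which covers the values of the others. Igf1r in COPs was 62.2 CPM in mouse 3 and 86.1 to 88.3 CPM in the others.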

How the results depend on the processing

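Of 487 single tests of a member under an alternative, 431 kept their direction and side of the threshold, 37 lost the call, 3 gained it and 16 changed sign. None of those that changed sign was called. With DESeq2, 15 calls were lost. The members called were 2 in place of 3 for tanycytes against ependymal cells, 3 in place of 5 for tanycytes against astrocytes, 1 in place of 5 for astrocytes against ependymal cells, 1 in place of 4 for oligodendrocytes against COPs, 3 in place of 6 for endothelial cells against astrocytes and 3 in place of 4 for microglia against astrocytes. For COPs against OPCs the count stayed at 3, with Irs2 lost and 1 member called that the edgeR filter had left out, and for any difference between types it was 8 in place of 7. With sums thinned to equal totals the counts were 3 for tanycytes against astrocytes, 1 for oligodendrocytes against COPs, 3 for endothelial cells against astrocytes and 1 in place of 7 for any difference between types, where fewer members passed the filter. In microglia no member passed it. Endothelial cells without mural UMIs gave 3. The cause of the other changes was not tested.

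Leaving out 1 mouse gave 2 to 4 calls for tanycytes against ependymal cells, 4 to 5 against astrocytes, 3 to 5 for astrocytes against ependymal cells (3 without mouse 30), 3 for COPs against OPCs, 3 to 4 for oligodendrocytes against COPs, 5 to 6 for endothelial cells and 3 to 4 for microglia against astrocytes, and 7 for any difference. Without the mouse block, 2 calls were lost, Socs3 in tanycytes against ependymal cells (0.49) and Foxo1 in tanycytes against astrocytes (0.35, adjusted p = 0.0790), and no other call changed.

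Signs that changed were as follows. For tanycytes against ependymal cells, leaving out 1 mouse gave -0.018 for Insr at the lowest, -0.38 to 0.021 for Irs2 and -0.32 to 0.26 for Stat3. Each highest or lowest value with the other sign was without mouse 30, and Stat3 was 0.06 without mouse 34. Irs2 was 0.24 with thinned sums and Stat3 0.17 with DESeq2. For astrocytes against ependymal cells, Stat3 was -0.26 without the block, -0.038 with thinned sums and -0.19 in 1 fit over all types, and from -0.25 to 0.46 on leaving out 1 mouse (negative without mouse 3 or 4). Foxo1 was -0.24 to 0.018 on leaving out 1 mouse (positive without mouse 4 or 30). Stat3 in endothelial cells was -0.051 with thinned sums. In microglia leaving out 1 mouse gave -0.46 to 0.064 for Insr and -0.20 to 0.59 for Irs2, with the sign changed without mouse 3.

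Depth limits Lepr, with 1 to 18 UMIs per type, and also Socs3 in COPs (2 UMIs) and Irs1 in microglia (3 UMIs). Of the 64 levels, 64 moved by less than 1 SD over mice without the cells of highest doublet score and 63 as means over cells, where Irs1 in tanycytes became 9.80 CPM. Leaving out 1 of 4 mice cannot move a mean by 1 SD, and without mouse 30 Lepr in microglia went from 12.0 to 2.50 CPM and Stat3 in ependymal cells from 122 to 63.6 CPM. Of 64 shares of cells, 50 fell by more than 1 SD after thinning.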
